A study of Mus musculus with 8 samples.

Results

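Litter 3 is 1 of 4 litters of C57BL6/J mouse pups from which cardiomyocytes, the contractile cells of the heart, were purified on postnatal day 2. It gave 2 of the 8 RNA libraries, 1 from a male and 1 from a female heart, and these were compared with the 6 libraries of litters 1, 2 and 4, each of which also gave 1 male and 1 female. No group received a treatment, carried an allele or differed in age, so the comparison is between litters alone. Litters had 6 to 8 pups on average, and how the cells were purified, the dams and the days of preparation are not given in the labels. The litter is therefore represented by 2 pups of a single litter. Any difference in dam, day or handling cannot be told apart from the litter itself.

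Litter 3 was chosen by its expression values in these same counts, in which its libraries stood apart from the rest. The values below therefore describe how it differed, the calls carry no test of whether it differed, and agreement between its 2 pups is no independent support. What the choice did not use is the contrast between male and female within each litter, which was tested and is given near the end.

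In the days after birth, mouse cardiomyocytes leave the cell cycle, change from fetal to adult isoforms of contractile proteins, and change from glucose to fatty acids as their main fuel. Several hormone and stress signals act on the heart at the same time, among them glucocorticoids, thyroid hormone and insulin, and each leaves a known set of target genes. Immediate-early genes, the rapid transcriptional response of a cell to stimulation, are also known to be induced when tissue is dissociated.

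Total counts in litter 3 were 22534910 for the male and 14226342 for the female, and 18849002 to 24910243 in the other 6 libraries. Mitochondrial genes took 14.7 to 15% of counts in litter 3 and 13.4 to 18.5% elsewhere, so litter 3 lay inside the range of the others. Genes with at least 1 count numbered 18655 to 19700 in litter 3 and 19249 to 19929 elsewhere. Expression is given as CPM, each count divided by its TMM-adjusted library total and put on a common scale, and CPM values of different genes are not compared because they are not per length.

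Of 48440 entries, 14412 had enough counts to be tested. In edgeR's quasi-likelihood fit with litter and sex as terms, 3950 of them (27.4%) had an adjusted p under 0.05 for litter 3 minus the mean of litters 1, 2 and 4. Such genes are called higher or lower below. Of the calls, 1896 (13.2% of tested genes) were higher in litter 3 and 2054 (14.3%) were lower, and these shares are the background for every list that follows. The median log2 fold change over all tested genes was -0.00138. With library size alone as the scaling the balance of directions differed, with 2451 higher and 1718 lower. The calls at the edge of the threshold had small or noisy changes, with Pkhd1l1 (log2 fold change -1.27) and Ghr (-0.19) just inside it, and Gm26407 (1.95) and Map2 (-1.77) just outside.

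Most of the higher genes changed little, while larger changes were more often downward. A fold of at least 2 was seen in 192 higher and 511 lower genes, and a fold of at least 4 in 24 higher and 128 lower genes. Both libraries of litter 3 lay above all 6 others in 2138 genes (14.8% of those tested) and below all 6 in 2334 (16.2%). The difference had the same sign in the male and the female for all 3950 called genes and for 10789 of all 14412 tested (74.9%).

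**Figure D1:**
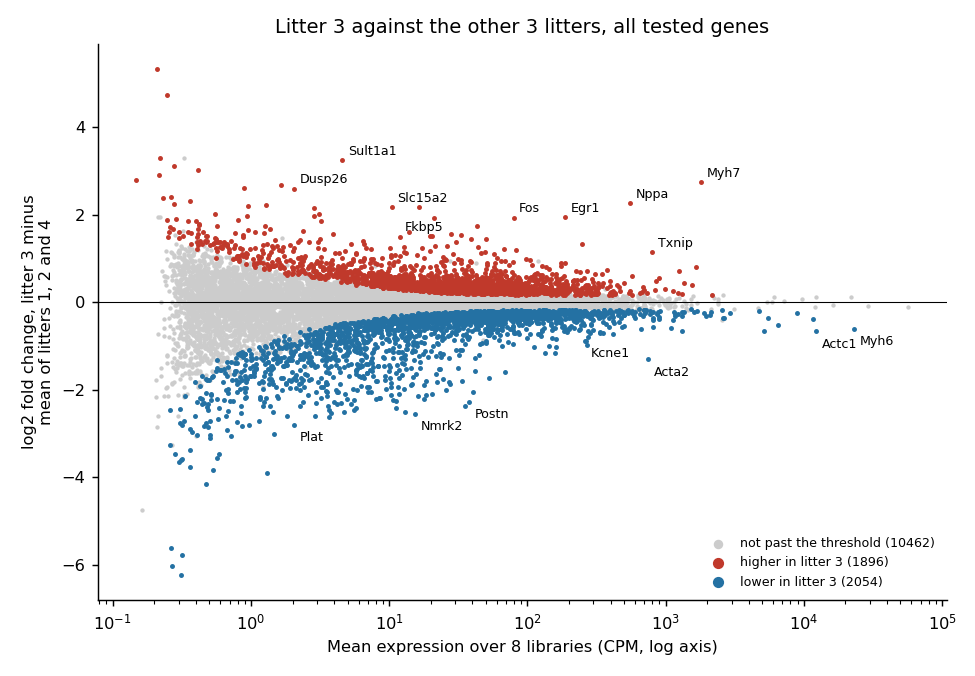
Log2 fold change of litter 3 minus the mean of litters 1, 2 and 4 (y axis) against mean expression over the 8 libraries in CPM on a log axis (x axis), with 1 point per tested gene. The 1896 higher genes are red, the 2054 lower genes blue and the others grey; the lower side holds more genes beyond a log2 change of 1.

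The size of the count depended on what was taken as the unit. The fit takes its spread from male and female libraries of the same litter, after the effect of sex. With litters 1, 2 and 4 pooled as 1 group, so that differences among those litters enter the spread, 1705 genes were called, all of them among the 3950 and in the same direction. With male and female counts summed, which leaves 1 litter against 3 and 2 residual degrees of freedom, 101 genes were called, 98 of them shared with the 3950. Calls numbered 1711 without the female of litter 3 (765 higher, 946 lower) and 2311 without its male (1163 higher, 1148 lower). A count or median given below as without a library comes from the fit that left that library out.

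The 15 genes with the largest upward differences included a phosphatase, a cardiac hormone and several rapid-response transcription factors. Dusp26 on chromosome 8, a dual-specificity phosphatase, had 5.62 CPM in the male and 5.24 CPM in the female of litter 3, against 0.457 to 1.38 CPM (median 0.964) in the other 6 libraries. Its log2 fold change was 2.59 (SE 0.25), and the groups did not overlap. Nppa on chromosome 4, which encodes atrial natriuretic peptide, had 1172 and 1515 CPM in litter 3 and 178 to 475 CPM (median 275) elsewhere, a log2 fold change of 2.26 (SE 0.21). Of the sequence windows of Nppa, 43.9% also occur in another gene, chiefly Gm13054 on the opposite strand, which was at 0.778 and 1.31 CPM in litter 3. Slc15a2, a peptide transporter gene on chromosome 16, had 25.7 and 20.3 CPM against 0.248 to 12.2 CPM (median 6.35), so the other litters themselves spread widely, and the gene was no longer called when they were pooled. Gria1 on chromosome 11, a glutamate receptor subunit, had 6.79 and 6.21 CPM against 0.495 to 3.59 CPM.

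Other genes of this group were Grap2, Peli2 and Flrt3, with log2 fold changes of 2.01 (SE 0.19), 1.85 (SE 0.17) and 1.63 (SE 0.24). Grap2 encodes an adaptor protein, Peli2 a ubiquitin ligase and Flrt3 a membrane protein that binds cell adhesion partners. Gem on chromosome 4, a small GTPase that restrains voltage-gated calcium channels, had 5.23 CPM in the male and 7.86 CPM in the female of litter 3 and 1.36 to 2.12 CPM (median 1.57) elsewhere. Neither library of litter 3 came near the others for Gem. Hif3a on chromosome 7, a hypoxia-inducible factor subunit that can act as an inhibitor of the others, had 81.1 and 96.0 CPM against 14.5 to 39.8 CPM (median 29.9), a log2 fold change of 1.75 (SE 0.07).

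The remaining genes of the 15 with the largest upward change, Egr1, Fosb, Fos, Ier2, Btg2 and Atf3, are immediate-early or stress-induced genes. Fos on chromosome 12, a subunit of the AP-1 transcription factor, had 184 CPM in the male and 162 CPM in the female of litter 3, and 23.3 to 66.6 CPM (median 47.1) in the others. Its log2 fold change was 1.93 (SE 0.13). Egr1 on chromosome 18, a zinc finger factor, had 444 and 374 CPM against 63.7 to 188 CPM (median 110). Fosb on chromosome 7 had 43.4 and 48.9 CPM against 7.65 to 19.1 CPM. For these 3 genes the lower library of litter 3 was still above the highest of the other 6.

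Of the 23 immediate-early genes tested, 15 were higher and 1 was lower, with a median log2 fold change of 0.86. Beside those above, Nr4a1, an orphan nuclear receptor, had 75.5 and 71.9 CPM against 19.1 to 36.3 CPM, and Jun 439 and 450 CPM against 147 to 231 CPM. Junb had a log2 fold change of 1.37 (SE 0.11), and Zfp36, whose protein speeds the decay of cytokine mRNAs, of 1.17 (SE 0.11). The list was not uniform. Klf2, Klf4 and Klf6 were not called and had 0.12, 0.24 and -0.03, Nr4a2 had 0.32 and Ier5 had 0.26, and Ier3 was lower at -0.35 (SE 0.11), a call lost in 4 leave-outs of 1 library, with -0.14 when the litter 3 female was left out. Hspa1a, an inducible HSP70 gene of the heat shock response, had 0.908 and 2.21 CPM against 1.49 to 3.74 CPM and was not called. Its close relative Hspa1b was called lower at -1.21, with 49.9% of its windows shared, chiefly with Hspa1a.

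**Figure D2:**
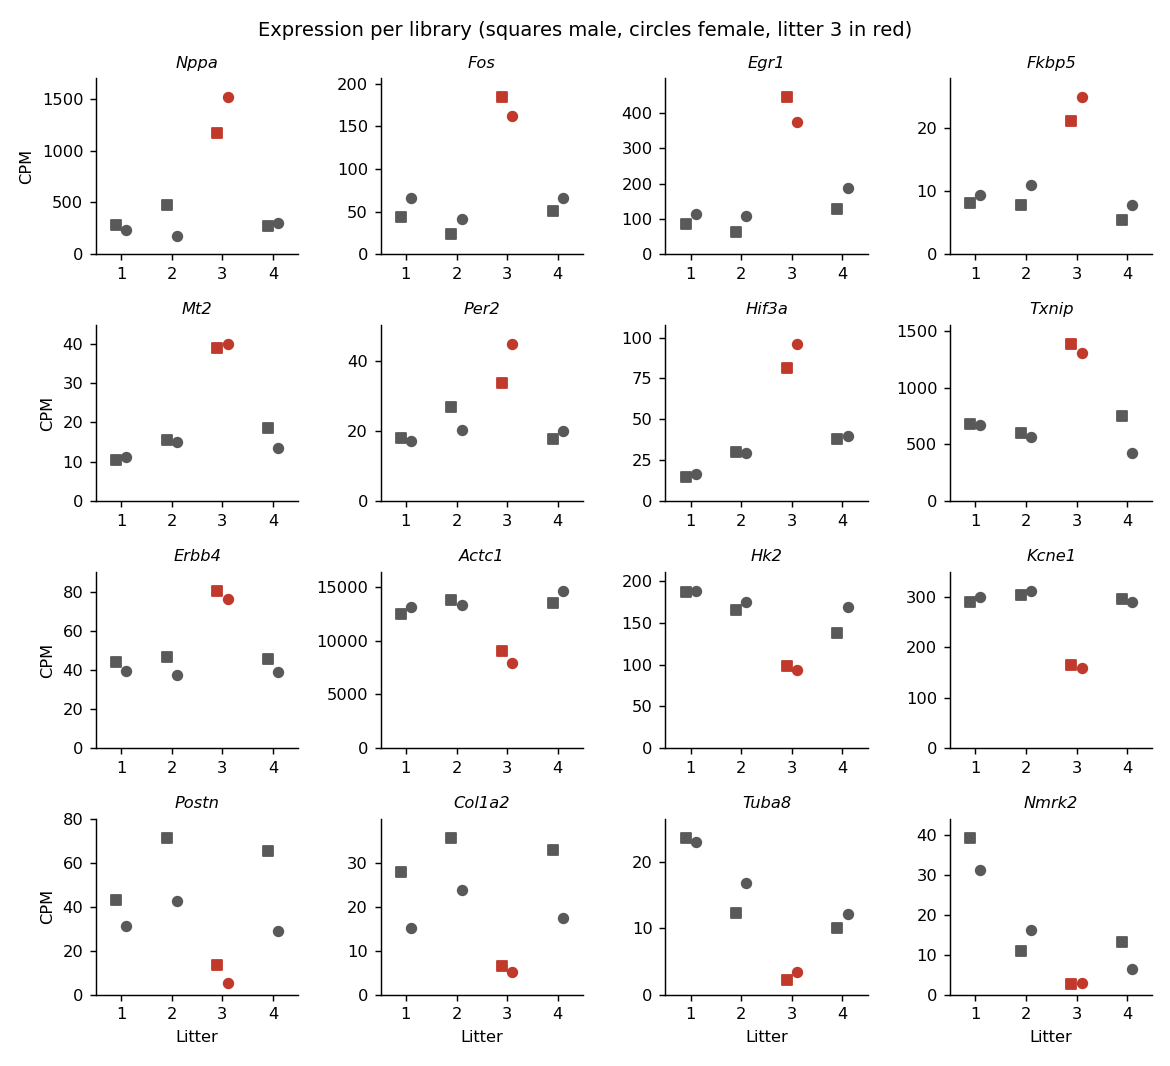
Expression in CPM on a linear axis from 0 (y axis) of 16 genes in each library, by litter (x axis), with squares for males, circles for females and litter 3 in red; each point is 1 library and no error is drawn. In all 16 panels both red points lie outside the range of the 6 grey points, above it for the first 9 genes and below it for the last 7.

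Glucocorticoid target genes were higher in 10 of 21 cases and lower in none (1 lower without the litter 3 female), with a median log2 fold change of 0.39. Fkbp5 on chromosome 17, a chaperone that dampens glucocorticoid receptor signalling and is induced by it, had 21.1 CPM in the male and 24.8 CPM in the female of litter 3, against 5.36 to 11 CPM (median 7.99) elsewhere. Its log2 fold change was 1.5 (SE 0.10). The metallothionein gene Mt2 on chromosome 8 had 38.9 and 39.9 CPM against 10.5 to 18.7 CPM (median 14.2), with 27.4% of its windows shared with other genes. Both litter 3 libraries held more than the highest other library for each of these genes. Glul, glutamine synthetase, had 170 and 234 CPM against 107 to 122 CPM, and Ddit4, an inhibitor of mTOR complex 1, had 34.0 and 37.9 CPM against 18.4 to 26.0 CPM.

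Tsc22d3, often used as a readout of glucocorticoid action, was higher by less, with 87.2 and 95.0 CPM against 66.4 to 85.5 CPM, a log2 fold change of 0.25 (SE 0.07) whose call was lost without the litter 3 female (0.19). Sgk1 (log2 fold change -0.18, SE 0.29), Klf9 (0.17, SE 0.10) and the receptor gene Nr3c1 (-0.08, SE 0.07) were not called. Zbtb16 had 5.92 CPM in the male and 17.1 CPM in the female of litter 3, against 6.03 to 14 CPM, so the 2 pups lay at opposite ends. The list median was 0.21 with the female of litter 3 left out, and 0.56 or 0.51 with the male of litter 3 or of litter 4 left out.

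Circadian clock genes were higher in 11 of 19 cases (5 without the litter 3 female) and lower in none, with a median log2 fold change of 0.49. The clock is a loop in which CLOCK and BMAL1, bound to E-boxes, switch on the Per and Cry repressors. Per2 had 33.8 CPM in the male and 44.8 CPM in the female of litter 3 and 17.2 to 26.9 CPM (median 19.1) elsewhere, a log2 fold change of 0.97 (SE 0.12), and Per3 had 82.7 and 107 CPM against 50.9 to 69.2 CPM. Per1 had 83.0 and 132 CPM against 40.9 to 88.4 CPM, so its male value fell within the range of the other litters, and its call was lost without the litter 3 female (0.54). Among the output factors, Tef had 100 and 128 CPM against 59.2 to 87.1 CPM, and Hlf had 56.6 and 64.4 CPM against 38.2 to 49.1 CPM. Per3 and Tef were no longer called without the female of litter 3, at 0.39 and 0.35.

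In the other arm of the clock, Clock was higher by 0.19 (SE 0.06) with overlapping values, a call lost without either litter 3 library, the litter 1 male or the litter 2 female (0.17 to 0.21). Arntl, which encodes BMAL1, was not called and had 13.1 and 11 CPM against 8.89 to 16.0 CPM. Npas2 and Nr1d1, the REV-ERBalpha gene, were not called, with log2 fold changes of -0.09 (SE 0.09) and 0.20 (SE 0.10). Dbp, an output gene with a strong daily rhythm, had 36.1 and 51.7 CPM against 25.8 to 49.3 CPM and was not called. The hour at which each heart was taken is not given in the labels.

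The 2 clock promoters shown here belong to called members that hold an E-box, the letters CACGTG, in the bases nearest their start. They are the 150 bases before the transcription start in RefSeq on GRCm38.p6, printed 5′ to 3′ on the strand of the gene, at chr15:81802523-81802672 for Tef (plus strand) and chr10:85185055-85185204 for Cry1 (minus strand), with the E-box in capitals. The call of Cry1 (log2 fold change 0.29) was lost in 5 of the 8 fits that left out 1 library, namely either library of litter 1 or 3 or the litter 2 male (0.27 to 0.30).
Tef: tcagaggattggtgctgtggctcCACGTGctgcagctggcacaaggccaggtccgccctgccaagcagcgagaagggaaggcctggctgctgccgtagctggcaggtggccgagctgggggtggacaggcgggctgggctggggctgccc
Cry1: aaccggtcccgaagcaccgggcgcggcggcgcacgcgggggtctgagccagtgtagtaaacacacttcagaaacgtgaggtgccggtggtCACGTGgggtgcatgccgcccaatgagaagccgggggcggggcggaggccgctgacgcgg
RefSeq promoters were matched for 10185 of the 14412 tested genes. In the 250 bases before the start, on either strand, CACGTG occurred in 5 of 16 clock promoters (31.2%), in 11.4% of the promoters of higher genes, in 7.23% of those of lower genes and in 8.5% of all tested genes. The 5 clock genes also include Bhlhe41 and Ciart, which were not called (log2 fold changes of -0.06 and 0.53). A match of letters is a description and shows no binding.

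FoxO factors, which are active when insulin signalling is low, and their targets in muscle atrophy and stress were higher in 12 of 23 cases (5 without the litter 3 female), with none lower and a median of 0.31. Txnip on chromosome 3, an inhibitor of glucose uptake and of thioredoxin, had 1386 CPM in the male and 1307 CPM in the female of litter 3 and 421 to 752 CPM (median 638) elsewhere. Its log2 fold change was 1.14 (SE 0.11), with 15.1% of its windows shared with other genes. Foxo4 had 66.0 and 66.4 CPM against 36.8 to 51.8 CPM, and Foxo3 75.5 and 93.4 CPM against 61.9 to 76.7 CPM, a call lost without the litter 3 female (0.21). The ubiquitin ligase genes that define muscle atrophy were not among the higher ones, with Trim63 at 268 and 297 CPM against 294 to 313 CPM and Fbxo32 at 0.31 (SE 0.12), neither called. Without the female of litter 3 the list median was 0.17 and without the male 0.48.

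Insulin and IGF signalling genes had 8 higher and 5 lower of 21, and 2 higher and 2 lower when the litter 3 female was left out. The receptors were higher: Igf1r, the growth factor receptor, had 125 and 157 CPM against 85.3 to 113 CPM, although it was no longer called without the female of litter 3 (log2 fold change 0.25). Igf2r, which clears IGF2, had 1071 and 1077 CPM against 725 to 878 CPM, with no overlap. The ligand Igf1 was lower, at 39.2 and 31.2 CPM against 42.9 to 65.9 CPM, and so were the binding proteins Igfbp3, Igfbp4 and Igfbp7, at -1.65, -0.74 and -1.72, with the calls of Igfbp3 (-1.46) and Igfbp4 (-0.49) lost without the litter 3 female.

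Genes of glucose use were mostly lower. Of 30 glycolysis and glycogen genes, 16 were lower and 4 higher, with a median log2 fold change of -0.23. Hk2, the insulin-responsive hexokinase, had 97.6 CPM in the male and 93.6 CPM in the female of litter 3 and 138 to 188 CPM (median 172) elsewhere, a log2 fold change of -0.83 (SE 0.07). Pfkl, a phosphofructokinase subunit, had 76.8 and 87.5 CPM against 117 to 166 CPM, and the muscle enolase Eno3 had 893 and 961 CPM against 1303 to 1610 CPM. Slc2a4, which encodes the insulin-regulated transporter GLUT4, had 81.8 and 112 CPM against 134 to 153 CPM. In each of these genes both libraries of litter 3 were the lowest of the 8. Pfkfb3, an activator of glycolysis, went the other way with 8.00 and 9.52 CPM against 3.12 to 5.2 CPM. Without the female of litter 3 the list median was -0.15, with 10 lower and 2 higher.

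Hypoxia response genes split, with 8 of 23 higher and 12 lower. Leaving out the litter 3 female gave 5 higher and 7 lower, and leaving out the male gave 5 higher. The higher ones include Hif3a, Ndrg1 (log2 fold change 0.91, SE 0.13) and Mxi1, a MYC antagonist, at 96.1 and 94.8 CPM against 37.6 to 61.5 CPM. The lower ones include the glycolytic targets, with Ldha at 576 and 605 CPM against 785 to 984 CPM, and the glucose transporter gene Slc2a1 at 17.8 and 20.1 CPM against 21.9 to 27.5 CPM, a call lost in 4 leave-outs, with -0.19 when the litter 3 male was left out. Vegfa, the angiogenic factor, was also lower (-0.20, SE 0.06) but overlapped, with 410 and 445 CPM against 396 to 572 CPM, and its call was lost in 5 leave-outs (-0.15 to -0.25).

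In mitochondrial metabolism, 12 of 24 genes of the TCA cycle and pyruvate dehydrogenase were lower and 4 higher, and 18 of 41 nuclear genes of the respiratory chain were lower and none higher. These differences were small, with medians of -0.15 and -0.14, and their counts depended on single libraries. The 12 lower TCA cycle genes were 5 without the litter 3 male, 3 without its female, where 2 were higher, and 7 without the litter 1 female. The 18 lower respiratory chain genes were 5 without the litter 3 male, 8 without its female and 9 without the litter 1 male. Pdhx, a subunit of pyruvate dehydrogenase, had 84.7 and 79.3 CPM against 99.4 to 123 CPM, and Ndufb10 of complex I had 328 and 330 CPM against 420 to 492 CPM. The kinases that shut pyruvate dehydrogenase off were higher, with Pdk4 at 509 and 556 CPM against 261 to 382 CPM and Pdk2 at 403 and 440 CPM against 272 to 381 CPM. None of 10 mitochondrially encoded mRNAs was called (1 without either library of litter 4). Perm1, a muscle regulator of mitochondrial genes, was lower at 131 and 130 CPM against 174 to 210 CPM, and Tfam, which packages mitochondrial DNA, was lower at -0.29 (SE 0.07), a call lost without the male of litter 3 (-0.21).

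Fatty acid and fasting genes regulated by PPAR receptors had 9 of 25 higher and 2 lower, with a median of 0.17. Without the male of litter 3 the count was 4 higher and the median 0.09, and 1 was lower in 4 of the 8 fits that left out a library, those of the litter 1, 2 and 3 females and the litter 4 male. Cpt1a, the liver-type entry enzyme for fatty acids into mitochondria, had 256 and 218 CPM against 156 to 199 CPM. Acot1, an acyl-CoA thioesterase, had 175 and 149 CPM against 73.7 to 114 CPM, though 12.5% of its windows are shared, chiefly within its gene family. Of the beta-oxidation enzymes, Acadm, Acadl and Acadvl were not called, with log2 fold changes of 0.01, 0.08 and -0.04, and Hadhb was higher by 0.20 (SE 0.06), a call lost without either litter 3 library (0.19 and 0.22) or the litter 1 male (0.19). Genes of fatty acid synthesis and storage had 4 higher and 4 lower of 21, and 1 lower without either litter 3 library. The median was near 0 and took either sign, at 0.00164 in the full set, -0.07 without the litter 3 male and 0.10 without its female. Of the higher members Lipe, hormone-sensitive lipase, had 78.3 and 72.6 CPM against 31.9 to 54.6 CPM, and Dgat2, which makes triglycerides, 134 and 148 CPM against 80.7 to 115 CPM. Of the lower members Lpl, lipoprotein lipase, had 1548 and 1789 CPM against 1851 to 2129 CPM, and Scd2, a fatty acid desaturase, had 301 and 255 CPM against 328 to 368 CPM, but their calls were lost without the litter 3 male (Lpl, -0.24) or female (Scd2, -0.22). In the use of ketone bodies, Oxct1, the enzyme that takes them into the TCA cycle, was lower at 175 and 195 CPM against 197 to 413 CPM. Nmrk2 on chromosome 10, a kinase that makes NAD from nicotinamide riboside in muscle, was among the 15 genes with the largest downward change, with 2.72 CPM in the male and 3.03 CPM in the female of litter 3 and 6.48 to 39.3 CPM (median 14.8) elsewhere. Its log2 fold change was -2.56 (SE 0.28), and 9.74% of its windows are shared, with the antisense gene Atcayos.

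**Figure D3:**
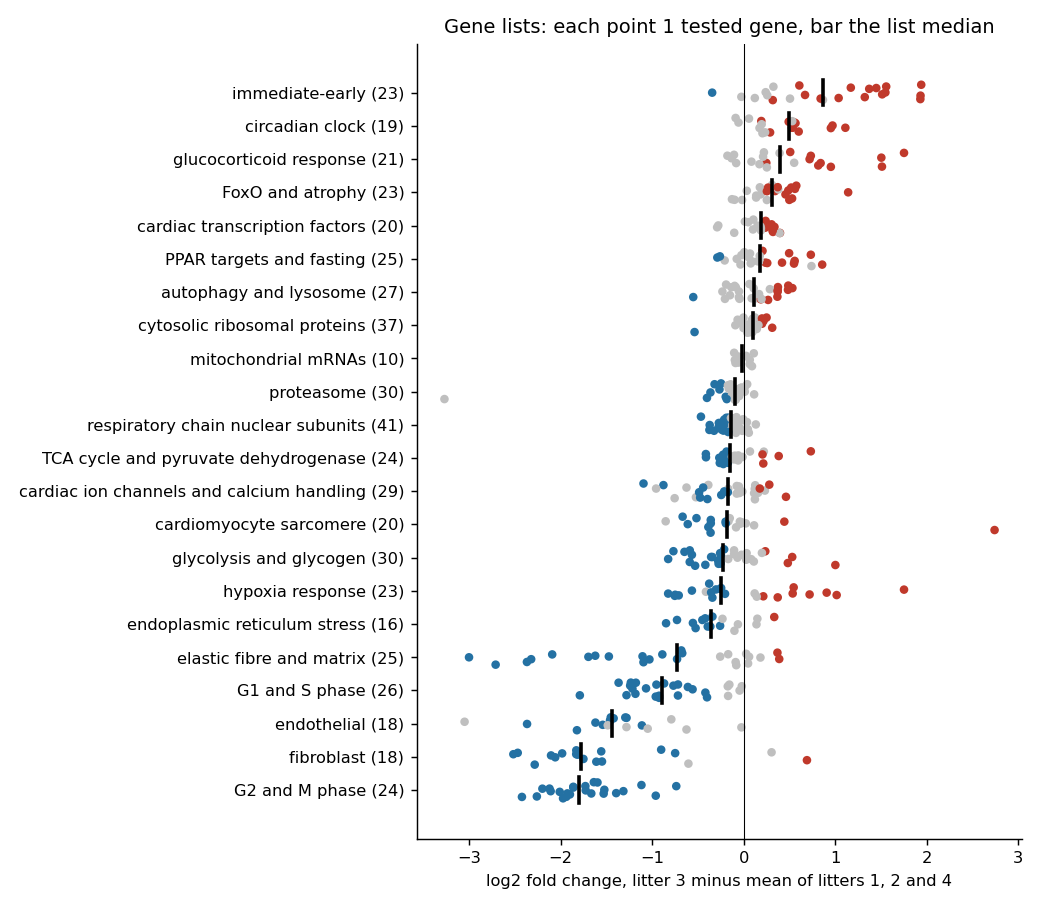
Log2 fold change of litter 3 minus the mean of litters 1, 2 and 4 (x axis) for the tested genes of 22 lists (y axis, number of genes in parentheses), with red for called higher, blue for called lower, grey for not called and a black bar at the list median. Lists are ordered by their median, from immediate-early genes at 0.86 to G2 and M phase genes at -1.80; the vertical scatter within a row has no meaning.

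Contractile protein genes other than Myh7 and Myom2 were lower or not called. Of 20 sarcomere genes, 9 were lower and 2 higher (Myh7 and Myom2), with a median of -0.18. Actc1, cardiac actin, had 9103 CPM in the male and 7909 CPM in the female of litter 3 and 12477 to 14673 CPM (median 13459) elsewhere, a log2 fold change of -0.67 (SE 0.07). Myh6, the fast cardiac myosin heavy chain, had 16865 and 16136 CPM against 20186 to 29158 CPM, with 11.4% of its windows shared with other genes. Tpm1 had 4873 and 4867 CPM against 6215 to 7621 CPM. In these 3 genes both litter 3 libraries were the lowest. Tnnt2 and Ttn were not called, with log2 fold changes of 0.11 (SE 0.06) and 0.02 (SE 0.06). Myom2, an M-band protein that builds up as the sarcomere matures, was higher at 1626 and 1739 CPM against 1009 to 1363 CPM.

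Genes of the fetal program went in both directions, with 2 of 16 higher (12.5%, Myh7 and Nppa) and 6 lower (37.5%), or 3 lower without the litter 3 male. Their median was -0.15, and it was -0.04 without the male and -0.30 without the female of litter 3. Acta2, smooth muscle actin, which immature cardiomyocytes also express, had 368 and 344 CPM against 804 to 1027 CPM (median 877), a log2 fold change of -1.31 (SE 0.07). Xirp2, a protein of the intercalated disc and Z-disc, had 20.1 and 15.5 CPM against 28.3 to 53.9 CPM. Nppb, which encodes B-type natriuretic peptide and is often induced together with Nppa, had 48.5 and 51.0 CPM against 23.8 to 103 CPM and was not called. Ankrd1, a stretch-responsive gene, had 358 and 284 CPM against 185 to 628 CPM and was not called either. Corin, the protease that activates atrial natriuretic peptide, was higher at 271 and 302 CPM against 144 to 181 CPM (log2 fold change 0.89, SE 0.08).

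Because Nppa also marks atrial cells, the other atrial genes were compared. Sln had 4.28 and 0.138 CPM in litter 3 against 0.450 to 15.9 CPM, Myl7 had 35.8 and 18.3 CPM against 6.97 to 152 CPM, and Myl4 had 85.9 and 71.0 CPM against 19.2 to 160 CPM. All 3 lay within or below the range of the other libraries and none was called. Bmp10 was not called either, at 9.68 and 9.86 CPM against 1.93 to 26.2 CPM. Over the whole conduction and atrial list, 3 of 17 genes were higher (Nppa, Dkk3 and Tbx5) and 1 lower (Nr2f2), with a median of 0.12 that was 0.26 without the litter 2 male. Leaving out single libraries gave 1 to 6 higher and 0 to 2 lower, with 1 higher without the litter 3 female or the litter 4 male and 6 without the litter 2 male. Dkk3, a gene of atrial myocytes, had 25.7 and 21 CPM in litter 3, within the 7.78 to 31.5 CPM of the others, and its call was lost without the litter 3 female (0.46) and in 2 of the other leave-outs of 1 library. Tbx5, a transcription factor of atria and left ventricle, had 57.4 and 51.5 CPM against 38 to 55.4 CPM, also overlapping, and its call was lost in 6 of the 8 leave-outs (0.17 to 0.31). Nr2f2, a transcription factor that sets atrial identity, had 0.778 and 0.621 CPM against 0.884 to 4.24 CPM, and its call was lost without the litter 3 male (-1.47) or female (-1.29).

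Of 29 genes for ion channels and calcium handling, 9 were lower and 3 higher, with a median of -0.17, and of -0.08 when the litter 2 male or the litter 3 female was left out. Without the litter 3 female 5 were lower and 1 higher, and without the litter 1 female 1 was higher. Kcne1, a potassium channel subunit, had 165 and 159 CPM against 290 to 311 CPM (median 297). The other 6 libraries were tightly grouped for Kcne1, and litter 3 was well under them with a log2 fold change of -0.88 (SE 0.06). Hcn2, a pacemaker channel, had 5.36 and 5.17 CPM against 8.35 to 14.4 CPM, and Kcnj2, which sets the resting potential, had 43.0 and 47.2 CPM against 54.6 to 66.8 CPM. The calcium pump gene Atp2a2 was slightly lower at 7731 and 7901 CPM against 8020 to 9653 CPM, with a log2 fold change of -0.25 (SE 0.06), and its call was lost without the male of litter 1 (-0.24) or without the male (-0.26) or the female (-0.22) of litter 3.

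Cardiac transcription factor genes were higher in 8 of 20 cases (2 without the litter 3 male) and lower in none, by at most 0.40 on the log2 scale, with a median of 0.19. Gata6 had 306 CPM in the male and 347 CPM in the female of litter 3 and 230 to 263 CPM elsewhere. Irx4, a ventricular factor, had 206 and 200 CPM against 138 to 181 CPM, and Nkx2-5 had 193 and 195 CPM against 138 to 178 CPM, although Nkx2-5 was no longer called without the male of litter 3 (0.23). Gata4, Mef2a and Mef2c were not called, at -0.10, 0.15 and 0.18.

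Among receptors and signalling genes of the cardiomyocyte, Erbb4 stood apart. This receptor for neuregulin, a growth signal from the endothelium, had 80.4 CPM in the male and 76.4 CPM in the female of litter 3 and 37.3 to 46.6 CPM (median 41.8) elsewhere. Its log2 fold change was 0.90 (SE 0.07), and in the full set no other of 19 neuregulin and growth factor receptor genes was higher, while 2 were higher without the litter 1 male, the litter 2 male or the litter 4 female. Of the 19 genes 6 were lower, with 3 without the litter 3 male and 0 without its female. Amotl1, a partner of the Hippo pathway effector YAP, had 105 and 115 CPM against 52.9 to 68.0 CPM. Cxcl12, a chemokine, had 80.1 and 86.9 CPM against 33.3 to 48.6 CPM, and Angpt1, a vessel-stabilising ligand, had 80.7 and 72.8 CPM against 19.9 to 48.9 CPM. These last 2 genes belong to none of the lists above and were chosen after their values were seen.

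Endoplasmic reticulum stress genes were mostly lower, 10 of 16 with 1 higher, and had a median of -0.35, but only 2 were lower and 0 higher without the litter 3 female. Manf, a factor secreted under such stress, had 23.6 and 17.0 CPM against 29.8 to 39.0 CPM (median 32.8), and the chaperone gene Hspa5 had 364 and 344 CPM against 390 to 464 CPM, a call lost without the litter 3 male (-0.33) or female (-0.18) or the litter 1 female (-0.24). Hyou1, another chaperone of this compartment, depended on the pup, with -0.18 and no call without the female of litter 3 and -0.94 without the male. The list median without that female was -0.19. Heat shock and chaperone genes had 3 of 19 higher (1 without the litter 3 male) and 4 lower, among them the small heat shock protein gene Hspb6 at 182 and 151 CPM against 220 to 304 CPM. Antioxidant genes had 6 of 19 higher and 3 lower (0 lower without the litter 3 male, 1 without its female), led by Mt2 and by the glutathione transferase gene Gstm1 at 60.2 and 58.2 CPM against 23.5 to 37.5 CPM.

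Of the 15 genes with the largest downward change, Itih5, Dpt, Eln, Col16a1 and Col15a1 belong to the matrix. Eln on chromosome 5, the elastin gene, had 7.31 CPM in both libraries of litter 3 and 14.9 to 96.7 CPM (median 42.4) elsewhere, a log2 fold change of -2.37 (SE 0.15). The other libraries spread widely for this gene, yet none reached the level of litter 3. Plat on chromosome 8, tissue plasminogen activator, had 9 and 3 counts in its male and female and 26 to 117 counts in the others, so its log2 fold change of -2.80 (SE 0.37) rests on few reads. Tuba8 on chromosome 6, a tubulin of heart and muscle, had 2.25 and 3.38 CPM against 10.1 to 23.7 CPM (median 14.5), with 12.5% of its windows shared. Flt1, a VEGF receptor of endothelium, had a log2 fold change of -2.37 (SE 0.47), which was -4.01 without the male of litter 3.

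Markers of cell types other than cardiomyocytes moved with these differences. Of 18 fibroblast genes, 15 were lower and 1 higher, with a median of -1.78. Their summed level was 140 CPM in the male and 116 CPM in the female of litter 3 and 203 to 417 CPM (median 280) elsewhere. Postn, a matrix protein of activated fibroblasts, had 13.7 and 5.59 CPM against 29.3 to 71.6 CPM, and Col1a2 had 6.53 and 5.24 CPM against 15.1 to 35.7 CPM. Dcn, decorin, had 3.80 and 1.86 CPM against 4.88 to 21.6 CPM. Pdgfra, the receptor that defines cardiac fibroblasts, was not called, with 2.90 and 3.45 CPM against 1.89 to 3.43 CPM, and neither was the fibroblast transcription factor gene Tcf21 (log2 fold change -0.60). Sfrp1, a Wnt inhibitor, was the higher member at 55.4 and 55.5 CPM against 25.8 to 44.9 CPM.

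Of 18 endothelial genes, 11 were lower and none higher, with a median of -1.44, but only 2 were lower without the litter 3 female. Their sum was 37.0 and 38.9 CPM in litter 3 and ran from 33.4 to 272 CPM elsewhere (median 89.9), so 1 of the other libraries was as low as litter 3. Pecam1, an adhesion molecule of all endothelium, had 2.68 and 3.03 CPM against 3.14 to 24.0 CPM, and its call was lost without the female of litter 3 (-1.15). Mural genes, of pericytes and vascular smooth muscle, were lower in 5 of 12 cases with none higher, and their sum of 2367 and 2348 CPM lay under the 2645 to 3034 CPM of the others. That list includes Acta2 and Des, which cardiomyocytes also express. Acta2 alone, at 368 and 344 CPM against 804 to 1027 CPM, differed by more CPM than the whole sum did, and Des was not called (0.03). Pdgfrb, the pericyte receptor, had 0.865 and 0.483 CPM against 1.73 to 6.30 CPM. Notch pathway genes, which vessels depend on, had 8 lower and 1 higher of 15, with 4 lower and 0 higher without the litter 3 male, 2 lower without its female and 5 without the litter 4 male.

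Other cell types showed no common direction. Epicardial genes had 1 higher (Tbx18, which part of the myocardium also expresses, at 21.3 and 21.1 CPM against 9.79 to 13.7 CPM, with 16.1% of its windows shared) and 1 lower of 8, and their sum of 24.9 and 25.1 CPM lay above the 16.1 to 22.2 CPM of the others, with Tbx18 making up most of it, while 6 of the 8 log2 fold changes were negative. The count of lower genes was 0 to 2 with single libraries left out, and 0 without the litter 3 male. Their median was -0.46 in the full set, -0.13 without the male and -0.58 without the female of litter 3. Of macrophage genes only 3 of 13 had enough counts, none was called, and Fcgr1 had 0 counts in every library. No neutrophil gene could be tested, and Ly6g and Camp had 0 counts in every library. Of 10 Schwann and neural genes 2 were tested, with 1 lower, a call lost without the litter 3 female.

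Erythroid genes separated the pups of litter 3. Their sum was 544 CPM in the male and 202 CPM in the female, against 126 to 273 CPM elsewhere, and 2 of 7 were higher and 1 lower. None was higher without the male of litter 3, 5 without its female or the female of litter 1 or 4, and 6 without the litter 2 male. Hbb-bs, a beta globin gene, had 286 and 99.3 CPM against 54.0 to 134 CPM. The median of 0.94 was 0.04 without the male of litter 3 and 1.61 without the female. Alas2, the erythroid enzyme of heme synthesis, lost its call without that male, at 0.57.

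In libraries made from a whole preparation, fewer cells of a type and less RNA per cell cannot be told apart. The part of the fibroblast, endothelial, mural and erythroid markers in the differences of the other lists was not tested. Sarcomere genes, which mark the cardiomyocytes themselves, summed to 88689 CPM in the male and 86475 CPM in the female of litter 3 and to 100235 to 114157 CPM elsewhere, so they were lower along with the fibroblast sum.

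Genes of matrix outside the fibroblast list were also lower. Of 25 genes on the elastic fibre and matrix list, 15 were lower and 2 higher, with a median of -0.73. Bgn, the proteoglycan biglycan, had 4.15 and 2.41 CPM against 7.15 to 22.4 CPM. Tnc, tenascin C, had 0.216 and 0.207 CPM against 0.8 to 4.45 CPM and is near the limit of detection in litter 3. Plxnd1, a semaphorin receptor of vessels and heart, had 14.3 and 16.1 CPM against 24.0 to 58.4 CPM, and over 33 axon guidance genes 8 were lower (3 without the litter 3 female) and 5 higher.

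Cell division genes were lower almost throughout, with 24 of 24 G2 and M phase genes and 21 of 26 G1 and S phase genes called lower, at medians of -1.80 and -0.90. Cdc20, an activator of the anaphase-promoting complex, had 3.37 CPM in the male and 4.55 CPM in the female of litter 3 and 10.6 to 21.5 CPM (median 15.3) elsewhere. Cdk1, the mitotic kinase, had 8.00 and 13.4 CPM against 16.0 to 35.2 CPM (median 20.4). For both genes the groups did not overlap, but the male lay further below the others than the female. The G2 and M phase sum was 162 CPM in the male and 235 CPM in the female, against 397 to 902 CPM. Pif1, a DNA helicase gene, and Mxd3, which encodes a partner of MAX, are named by size and had log2 fold changes of -2.63 (SE 0.32) and -2.60 (SE 0.29). Ccnd2, the cyclin D2 gene, was not called and had 230 and 193 CPM against 186 to 285 CPM. Cell cycle inhibitors differed from each other, with Cdkn1b, which encodes p27, at 88.6 and 96.2 CPM against 58.7 to 71.0 CPM and Cdkn1a, which encodes p21, not called at -0.13 (SE 0.09).

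The promoters of Cdc20 and Cdk1 are shown because both hold the CCAAT box, found in most promoters of the list, and TTTGAA, found in fewer. They are again the 150 bases before the start in RefSeq on GRCm38.p6, 5′ to 3′ on the gene's strand, at chr4:118437344-118437493 and chr10:69352913-69353062, both on the minus strand. Capitals mark the CCAAT box (CCAAT, or ATTGG when it lies on the opposite strand) and the cell cycle homology region (TTTGAA).
Cdc20: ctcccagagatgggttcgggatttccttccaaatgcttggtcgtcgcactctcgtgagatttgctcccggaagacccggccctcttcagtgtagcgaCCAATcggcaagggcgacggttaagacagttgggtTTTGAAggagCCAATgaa
Cdk1: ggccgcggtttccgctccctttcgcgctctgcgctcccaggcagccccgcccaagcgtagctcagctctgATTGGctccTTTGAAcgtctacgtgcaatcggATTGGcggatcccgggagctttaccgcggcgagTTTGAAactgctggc
In the 250 bases before the start, CCAAT occurred on either strand in 18 of 21 promoters of the list (85.7%), against 36.3% of all tested genes and 34.5% of all RefSeq promoters. TTTGAA occurred in 8 of 21 (38.1%), against 10.1% and 16.3%. Over all 1549 matched promoters of lower genes the shares were 39.8% and 11.9%, close to those of all tested genes. These are descriptions of letters, not of binding.

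Long intergenic noncoding RNAs were called higher in 8.87% and lower in 6.38% of 282 cases, and antisense RNAs in 9.06% and 5.94% of 320, all below the shares over all genes tested. Malat1, an abundant nuclear RNA, was higher at 1916 and 1863 CPM against 1248 to 1712 CPM, while its neighbour Neat1, which builds paraspeckles, was lower at 55.0 and 83.1 CPM against 96.7 to 211 CPM. Of 19 snoRNA host and noncoding RNA genes 7 were higher and 2 lower (1 without the litter 3 male), among them Zfas1 at 45.4 and 54.6 CPM against 20.8 to 32.4 CPM. Of 4 histone genes tested 1 was called, Hist1h1c, a linker histone gene, which had 116 and 121 CPM against 43.9 to 60.7 CPM. Of 19 imprinted growth genes 4 were higher and 3 lower (21.1% and 15.8%, with 1 lower without the litter 3 female), with Peg3 at 153 and 172 CPM against 88.9 to 129 CPM and Mest at 152 and 175 CPM against 65.3 to 126 CPM, the latter with 31.7% of its windows shared with the overlapping gene Copg2.

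Properties of the genes moved with the calls as well. In 4 bins of equal size, the share of higher genes went from 8.48% for the shortest transcripts (57 to 2040 bases) to 20.2% for the longest (4735 to 123179 bases), while the share of lower genes was 12.6% and 14%. By GC content of the transcript, the share of lower genes went from 10.9% in the lowest of 4 bins to 17.1% in the highest. By mean CPM, the share of higher genes went from 5.5% in the lowest bin to 18.2% in the highest, and that of lower genes from 8.35% to 18.2%. The shares used as background above therefore differ with expression. On the X chromosome 17.1% of 480 genes were higher and 7.71% lower. Among 287 entries annotated as TEC, loci still to be experimentally tested, 41 were higher (14.3%) and 3 lower (1.05%). Among 49 sense intronic transcripts 8 were higher (16.3%) and 1 lower (2.04%). Over all tested genes the shares were 13.2% and 14.3%, so in both classes it was mainly the share of lower calls that departed from them. TEC entries held 0.0757 to 0.0763% of counts in litter 3 and 0.0570 to 0.0704% elsewhere. With each library corrected for GC content and transcript length, 4143 genes were called, 3628 of them shared with the 3950.

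Litter 4 was most often the litter nearest to litter 3. Among the 1896 higher genes, litter 4 had the next highest mean in 855 (45.1%), against 37.6% of all tested genes in which it was the highest of the 3, and litter 1 in 460 (24.3%, against 34.3%). Among the 2054 lower genes litter 4 was next lowest in 1074 (52.3%, against 39.5%) and litter 1 in 410 (20.0%, against 33.2%). Without both libraries of litter 4 the count of calls was 4227, and without both of litter 1 it was 3013.

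Male and female were then compared within litters, to ask whether sex acted differently in litter 3. In edgeR's quasi-likelihood test of the interaction, with 2 residual degrees of freedom, 0 of 14412 genes passed (0%), while 841 had an unadjusted p under 0.05. DESeq2 called 4 genes, with 179 at an unadjusted p under 0.05, and other settings gave up to 75. The smallest adjusted p, 0.0861, was shared by Timp3 and Cyr61, named here after their values were seen. Timp3, an inhibitor of matrix proteases, had 138 CPM in the male and 235 CPM in the female of litter 3, while the other litters had 99.6, 140 and 132 CPM in males and 89.5, 82.4 and 97.6 CPM in females. The female of litter 3 was thus apart from the male and from all 6 others. The interaction was -1.21 on the log2 scale (SE 0.18), male minus female in litter 3 less that difference in the others. Cyr61, a matricellular protein gene, had 50.8 and 31.5 CPM in litter 3, while the males of litters 1, 2 and 4 had 27.8 to 40.7 CPM and their females 39.9 to 47.3 CPM, an interaction of 1.13 (SE 0.17). In simulated counts the same test found 88% of genes with a 4-fold interaction and 58% of those with a 2-fold one, so the absence of calls does not show that smaller differences between the pups were absent.

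**Figure D4:**
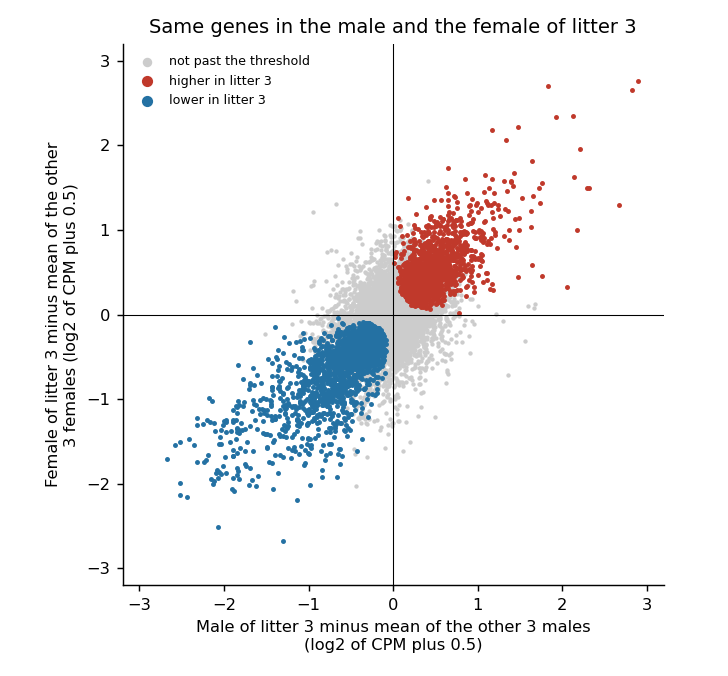
Difference of the male of litter 3 from the mean of the 3 other males (x axis) and of the female of litter 3 from the mean of the 3 other females (y axis), both on the log2 scale of CPM plus 0.5, with 1 point per tested gene. Called genes (red higher, blue lower) lie where both differences have the same sign, which holds for 3950 of 3950 called genes and 10789 of 14412 tested.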

How the data were processed

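The authors deposited raw counts per gene symbol, whole numbers for 48440 entries and 8 libraries. Per the labels' protocols, libraries came from total RNA with a stranded kit and were read from a single end, and per the submitters' processing notes STAR 2.7.3a and the mm10 build were used. The molecule field of the labels reads poly(A) RNA although the named kit is for total RNA, which bears on noncoding and histone values. The counting program, its annotation and its strand setting are not given in the sources used here. Symbols were matched to GENCODE M21 (46368 directly, 590 by an older symbol, 1482 not).

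Genes were kept by filterByExpr on litter 3 status, libraries scaled by TMM and a model of litter and sex fitted in edgeR 4.0.16 (R 4.3.3), with litter 3 minus the mean of litters 1, 2 and 4 as the contrast, 3 residual degrees of freedom, Benjamini-Hochberg adjustment over all tested genes and a threshold of 0.05. Standard errors were derived from the size of the change and its F statistic. DESeq2 1.42.0 was an alternative, beside other scalings, filters, thinning, left-out libraries and litters, and pooled or summed litters. The labels state that a male and a female share a litter, and litter is a term of the model. P-values of this model measure only the spread between male and female libraries of a litter after the effect of sex, not the spread between litters.

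Genes named by size were the 15 with the largest change in each direction among called genes with a mean of at least 2 CPM, no overlap between groups and no predicted symbol, leaving out Myh7, Sema5a and Sult1a1. Up to 4 such members were named per list, and further members are given by their values. The litter, the gene lists (57) and these rules were chosen with earlier results of these data known. Shared sequence was measured over 100-base windows of the longest GENCODE transcript, as the share also present in transcripts of other genes. On simulated counts for 14179 genes the litter contrast recovered 100% of genes changed 4-fold, 78% of those changed 2-fold and 68% of those changed 1.5-fold, with 2.98% false calls. The simulated counts held no differences between litters beyond those put in, so the 2.98% does not cover variation between litters.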

Additional observations from a re-analysis of the deposited data

Results flagged for a closer look

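In each of 199 groups made of the 6 libraries of litters 1, 2 and 4, the gap between the most extreme library and its neighbour was set against the whole range. In 10 groups a library lay far from the other 5. Chance gives about 1 in 20 groups, and groups that use the same libraries are not independent. For Tnc the male of litter 2 had 4.45 CPM with the nearest library at 1.89 CPM. The same male was highest for Per2 (26.9 CPM, next 20.2), Edn1 (3.74 CPM, next 2.89) and Ednra (99.1 CPM, next 77.8), and lowest for Psmc5 (90.8 CPM, next 102). The male of litter 4 was highest for Flrt3 (2.71 CPM, next 1.60) and for the mitochondrial share of counts (18.5%, next 15.2%), and lowest for Atp2a2 (8020 CPM, next 9387). The female of litter 4 was lowest for Oasl2 (0.295 CPM, next 0.764) and Wwtr1 (69.1 CPM, next 75.5).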

How the results depend on the processing

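The count of genes called for litter 3 stayed within 1.5 times of 3950 under the other scalings, filters, thinning, DESeq2 (2796), the correction for GC content and length, and the left-out litters. Pooling litters 1, 2 and 4 gave 1705 (783 higher, 922 lower), and counts summed per litter gave 101 (59 higher, 42 lower), where 1 litter is assumed to vary like the others. Males only, 1 against 3, gave 7 (5 higher, 2 lower), and females only gave 259 (143 higher, 116 lower). Leaving out single libraries gave 1711 to 3835 (765 to 1848 higher, 946 to 2021 lower). Without the sex term, which is the same as the replicate number, and with litter kept in the model, 3345 were called. For the interaction of sex with litter 3, called 0 times, the count was 74 with no filter on low counts, 4 in DESeq2, 2 after thinning, 10 to 73 without single libraries of the other litters, and 11, 75 and 12 without both libraries of litter 1, 2 or 4. It could not be fitted without a library of litter 3. Of 195 named genes none changed sign in the settings that tested them, 174 were called in DESeq2, 148 with litters pooled and 35 with summed counts. No list median given in the text changed sign under the other scalings, a left-out library or a mean of at least 50 counts, except that of the epicardial list, 0.83 with the latter, and that of fatty acid synthesis and storage, negative without the litter 2, 3 or 4 male (-0.03, -0.07 and -0.0026). The erythroid median was 0.04 without the male of litter 3, against 0.94 with it; the cause was not tested. Depth limits genes with few reads, such as Plat and Tnc.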
